A study of Mus musculus with 2 samples.

Results

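Genes of cholesterol and fatty acid synthesis were examined in the growing femur of mouse embryos without *Tric-b*. The set held 30 genes, listed by name with earlier results of these data known. Each gene came with every probe set that the platform annotation assigns to that gene alone. These were 68 of the 45037 probe sets on the array and 30 of the 18193 genes with a singly annotated probe set. They comprised 17 enzymes of sterol synthesis, 7 sterol regulatory element-binding proteins (SREBPs) and their regulators, and 6 enzymes of fatty acid synthesis. The set is a selection and not a full account of either pathway.

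The labels describe 2 specimens, both from Tric-b-KO embryos at E17.5 on a strain given as C57BL/6J, 129Sv. One is the cartilage section enriched with columnar and hypertrophic chondrocytes, the other the section enriched with round chondrocytes, called columnar/hypertrophic and round cartilage below. Each RNA was a mixture of 3 preparations and was hybridized to 1 Affymetrix GeneChip mouse array. With 1 array per zone, no difference below has a replicate check, a standard error or a p-value, and wild-type cartilage was not analysed here. Differences are given as log2 of the signal in columnar/hypertrophic cartilage over that in round cartilage, so that positive values are higher in columnar/hypertrophic cartilage. A size rule of 2-fold was used for description.

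The zone and tissue markers bear on how these values are read. In bulk RNA, fewer cells of a type and less RNA per cell cannot be told apart. The 6 general chondrocyte markers were all above the floor in both arrays and had a median difference of 0.013, with 0 at 2-fold. Signals of 5 of them, *Sox9* apart, were 34757 or more on a scale ending at 68899, so their small differences do not show equal chondrocyte content. The hypertrophic collagen gene *Col10a1* had a signal of 25421 in the columnar/hypertrophic array and lay under the floor in the round array. Of the other hypertrophic markers, *Ibsp* had signals of 526 in columnar/hypertrophic and 14.0 in round cartilage, the latter under the floor. *Mmp13* lay under the floor in both arrays (63.4 in columnar/hypertrophic, 13.3 in round), and *Spp1* had no singly annotated probe set. All 5 perichondrium and fibroblast markers passed 2-fold toward the round array, with summed signals of 10920 in columnar/hypertrophic and 60162 in round cartilage. Of 8 measured adipocyte markers, 7 lay under the floor in both arrays, *Adipoq*, *Cidec* and *Fabp4* among them, and the lipoprotein lipase gene *Lpl* was the exception. The 4 probe sets of the targeted gene, *Tmem38b*, ranged from 43.1 to 304 in columnar/hypertrophic and from 69.4 to 323 in round cartilage. Whether they lie within the deletion is unknown here, so the genotype has no check.

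Cholesterol is built from acetyl-CoA through the mevalonate pathway, squalene and lanosterol, and fatty acids from malonyl-CoA. SREBPs are membrane-bound transcription factors of the ER that drive the genes of both pathways. When sterols are scarce, SCAP escorts SREBPs to the Golgi apparatus, where a pair of proteases release the active fragment. INSIG proteins hold SCAP in the ER when sterols are plentiful. Chondrocytes need sterols for membranes and for Hedgehog signaling, and inborn errors of late sterol synthesis in humans, such as CHILD syndrome and X-linked dominant chondrodysplasia punctata, affect the skeleton.

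All 30 genes were above the floor signal of 65.9 in both arrays, the 40th percentile of all signals, under which signals were not told apart. Columnar/hypertrophic cartilage had the higher signal by 2-fold or more for 14 of the 30, and round cartilage for 0. Among all 12761 compared genes these shares were 4.28% and 6.25%. Any positive difference was found for 27 of the 30 members and for 46.8% of all compared genes. The median difference of the members was 0.91, against -0.04 for all compared genes. Because the members were chosen with earlier results known, these contrasts describe the set and are not a test. Bright genes give steadier values than dim ones. Among the 8204 genes at least as bright as the dimmest member, a limit set after the values were seen, 3.51% passed 2-fold toward columnar/hypertrophic cartilage. The genes past 2-fold in either direction divided unevenly over the array, with 40.6% of them higher in the columnar/hypertrophic array as deposited and 52.8% after lowess centring. Under that centring 14 members again passed 2-fold toward columnar/hypertrophic cartilage, 13 of them among the 14 found as deposited.

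**Figure D1:**
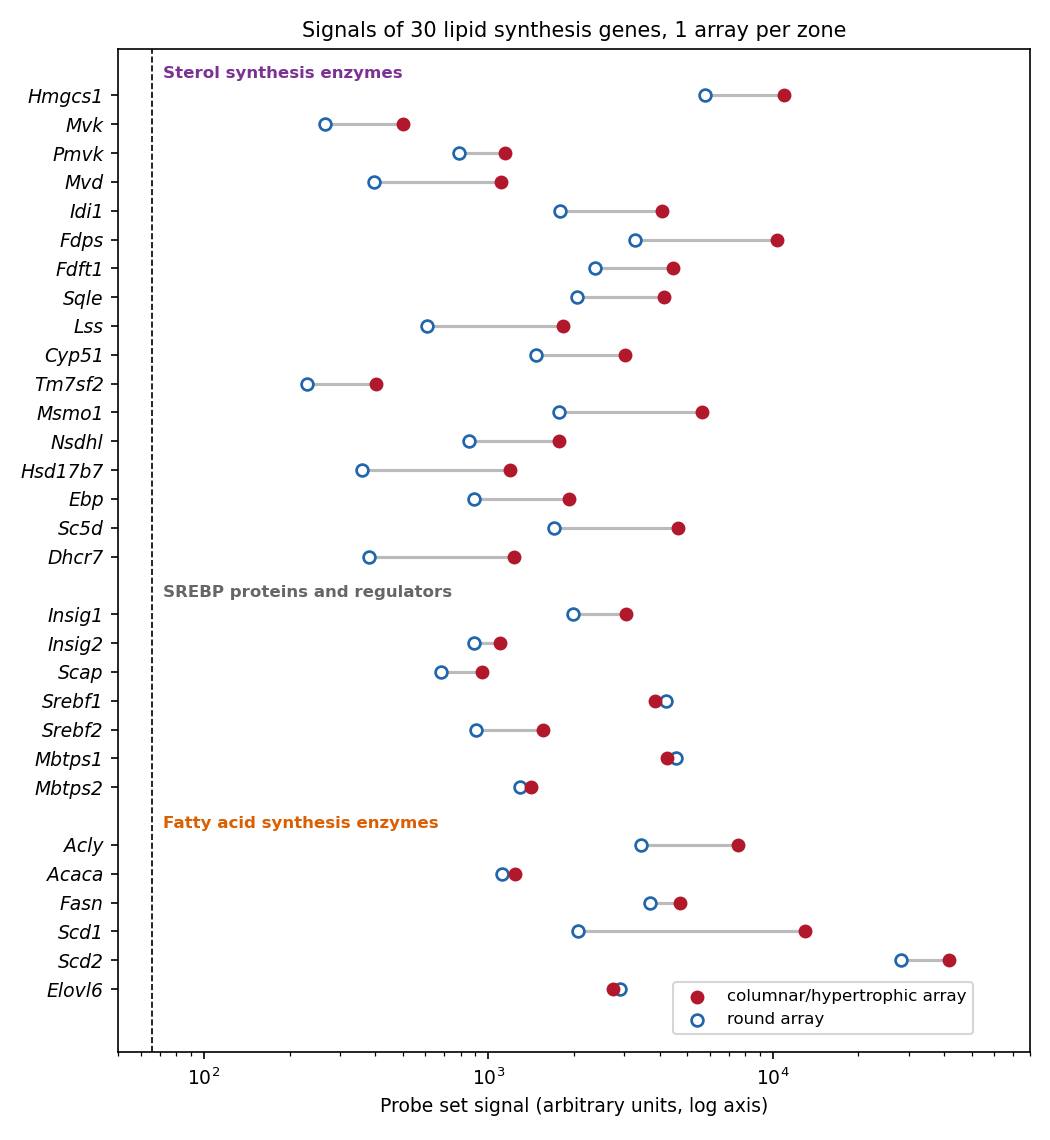
Probe set signals (arbitrary units, log axis) of the 30 genes in the columnar/hypertrophic array (filled circles) and the round array (open circles), 1 array per zone and 1 probe set per gene. The dashed line is the floor of 65.9. The filled circle lies to the right for all 17 sterol synthesis enzymes, and circles nearly overlap for *Srebf1*, *Mbtps1*, *Mbtps2*, *Acaca* and *Elovl6*.

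The enzymes of sterol synthesis were higher in the columnar/hypertrophic array at every measured step. Of the 17 genes, 17 had a positive difference and 12 reached 2-fold. Their differences ran from 0.53 for *Pmvk* to 1.73 for *Hsd17b7*, with a median of 1.11, a 2.16-fold difference. The same was seen on single probe sets. Of 38 probe sets of these genes, 34 were compared, 33 of these were higher in the columnar/hypertrophic array and 21 by at least 2-fold. Of all singly annotated probe sets compared, 3.82% reached 2-fold in that direction.

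The 6 genes of the mevalonate steps had a median difference of 1.06. *Hmgcs1*, encoding the HMG-CoA synthase that opens the pathway, had a signal of 10922 in columnar/hypertrophic and 5752 in round cartilage. Its difference of 0.92 fell just short of 2-fold, but its 5 probe sets were all higher in the columnar/hypertrophic array, from 0.66 to 1.10. *Mvk*, encoding mevalonate kinase, had signals of 500 in columnar/hypertrophic and 267 in round cartilage, and its 2 probe sets gave 0.82 and 0.90. *Pmvk*, encoding phosphomevalonate kinase, had signals of 1141 in columnar/hypertrophic and 788 in round cartilage, the smallest difference of the 17. The next enzyme, the decarboxylase encoded by *Mvd*, stood further apart. Its signals were 1112 in columnar/hypertrophic and 397 in round cartilage, and its 2 probe sets gave 1.49 and 1.60. *Idi1*, encoding isopentenyl diphosphate isomerase, had signals of 4075 in columnar/hypertrophic and 1791 in round cartilage, a difference of 1.19. *Fdps*, encoding farnesyl diphosphate synthase at the branch point to isoprenoids, had signals of 10340 in columnar/hypertrophic and 3277 in round cartilage, a 3.16-fold difference on the single probe set above the floor.

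From squalene to lanosterol there are 3 genes, with differences close to or above 2-fold. *Fdft1*, encoding squalene synthase, had signals of 4442 in columnar/hypertrophic and 2379 in round cartilage, with 0.89 and 0.90 on its 2 compared probe sets. *Sqle*, encoding squalene epoxidase, which carries out a rate-limiting oxidation, had signals of 4143 in columnar/hypertrophic and 2057 in round cartilage. Its difference of 1.01 lay just inside the 2-fold rule, while those of *Hmgcs1*, *Fdft1* and *Mvk* lay just outside it. *Lss*, encoding lanosterol synthase, had signals of 1824 in columnar/hypertrophic and 608 in round cartilage. Its 3 probe sets were less even, with differences of 1.58, 0.94 and 0.69, and the brightest alone passed 2-fold.

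The 8 genes acting after lanosterol had a median difference of 1.28, and 7 of them reached 2-fold. *Cyp51*, encoding lanosterol 14-alpha-demethylase, had signals of 3020 in columnar/hypertrophic and 1465 in round cartilage. Its 3 probe sets were close together, each just past 2-fold. *Tm7sf2*, encoding a sterol C14 reductase, was the gene of this stretch below 2-fold, with signals of 402 in columnar/hypertrophic and 230 in round cartilage (difference 0.80). *Msmo1*, *Nsdhl* and *Hsd17b7* encode the enzymes that strip the methyl groups at C4. *Msmo1* had signals of 5656 in columnar/hypertrophic and 1766 in round cartilage, with differences of 1.68 and 1.06 on its 2 probe sets. *Nsdhl*, the gene of CHILD syndrome in humans, had signals of 1767 in columnar/hypertrophic and 853 in round cartilage, a difference of 1.05. *Hsd17b7* had signals of 1189 in columnar/hypertrophic and 359 in round cartilage, with differences from 1.28 to 1.73 over 3 compared probe sets. All these methyl-removing enzymes thus passed the size rule on each of their compared probe sets.

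The last steps followed the same pattern. *Ebp*, encoding the sterol isomerase mutated in X-linked dominant chondrodysplasia punctata, had signals of 1923 in columnar/hypertrophic and 892 in round cartilage (difference 1.11). *Dhcr7*, encoding the 7-dehydrocholesterol reductase deficient in Smith-Lemli-Opitz syndrome, had signals of 1229 in columnar/hypertrophic and 380 in round cartilage, a 3.24-fold difference. *Sc5d*, encoding a sterol C5 desaturase, had the least even probe sets of the 17 genes. Its brightest had signals of 4654 in columnar/hypertrophic and 1702 in round cartilage, a difference of 1.45. The others gave 0.56 and -0.22, the last with signals of 81.2 in columnar/hypertrophic and 94.6 in round cartilage, near the floor.

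**Figure D2:**
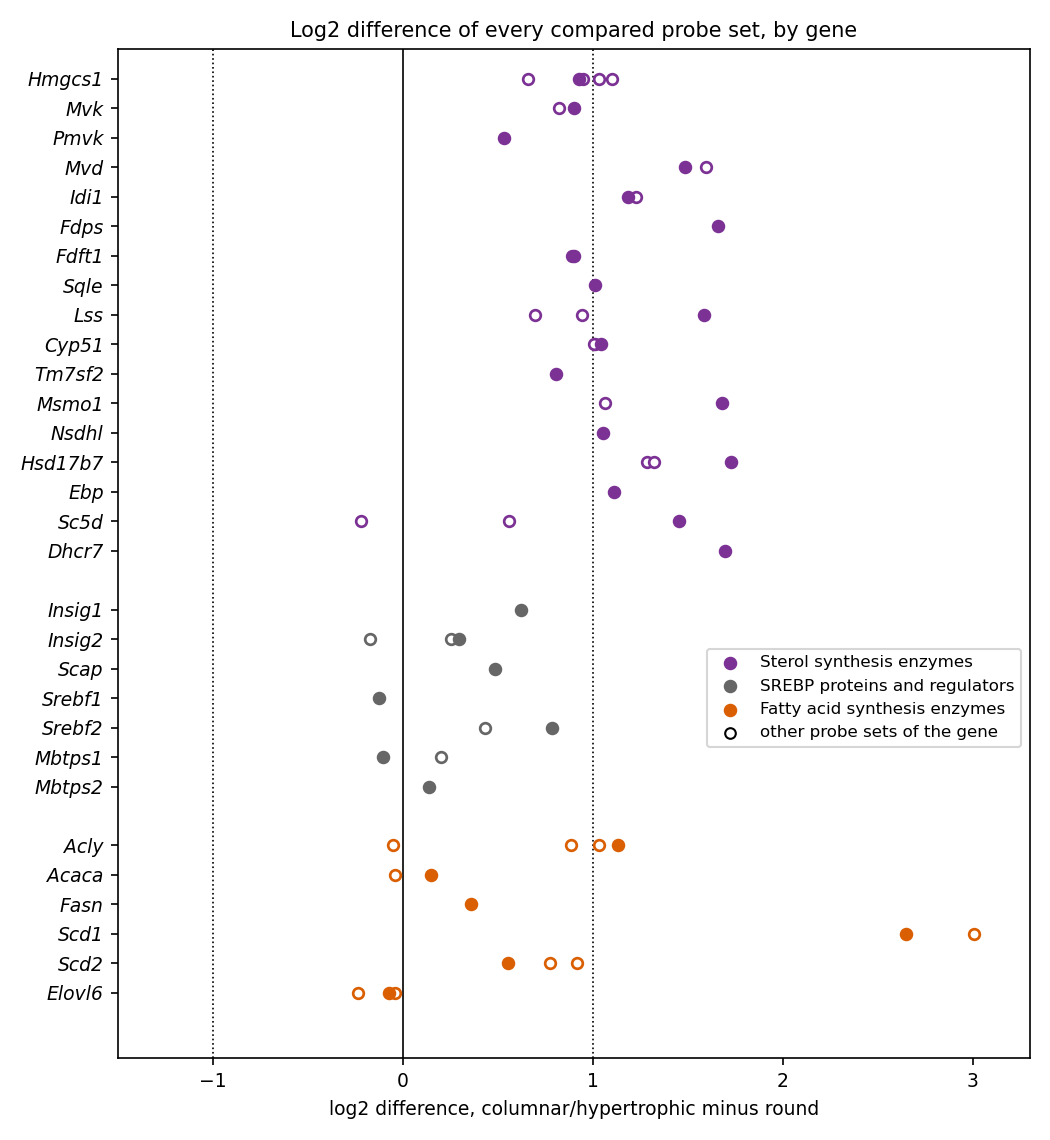
Log2 difference (columnar/hypertrophic minus round) of each of the 60 compared probe sets, by gene in pathway order. Filled circles are the brightest probe set of a gene, open circles its other probe sets, and dotted lines mark 2-fold. Probe sets of *Cyp51* and *Idi1* coincide, those of *Sc5d*, *Lss* and *Acly* spread widely, and *Scd1* lies farthest to the right, with its brightest probe set at 2.65.

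The SREBPs and their regulators differed less, with a median difference of 0.30. In either direction 0 of 7 reached 2-fold. Among all compared genes 4.28% did so toward columnar/hypertrophic and 6.25% toward round cartilage, so 0 of 7 is near the array as a whole. *Srebf2*, encoding SREBP-2, the form directed mainly at sterol genes, had signals of 1557 in columnar/hypertrophic and 905 in round cartilage, and its 2 probe sets gave 0.78 and 0.43. *Srebf1*, encoding SREBP-1, had signals of 3856 in columnar/hypertrophic and 4208 in round cartilage, a difference of -0.13. Its single probe set does not separate the SREBP-1a and SREBP-1c forms here. The mRNA level of a SREBP does not show how much of the protein is cleaved, which was not measured.

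Of the retention factors, *Insig1*, itself an SREBP target, had signals of 3048 in columnar/hypertrophic and 1980 in round cartilage, a difference of 0.62. *Insig2*, encoding the paralog less dependent on SREBPs, had signals of 1094 in columnar/hypertrophic and 891 in round cartilage. Its 3 probe sets gave differences from -0.18 to 0.30, on both sides of 0. *Scap*, encoding the escort protein, had signals of 950 in columnar/hypertrophic and 679 in round cartilage, a difference of 0.48. The processing proteases were nearly level. *Mbtps1*, encoding the site-1 protease, had signals of 4233 in columnar/hypertrophic and 4556 in round cartilage, and its 2 compared probe sets gave -0.11 and 0.20. *Mbtps2*, encoding the site-2 protease, had signals of 1417 in columnar/hypertrophic and 1289 in round cartilage, a difference of 0.14. The pooled SD between probe sets of one gene was 0.34 over 5446 genes, wider than the differences of *Srebf1*, *Insig2* and both protease genes.

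The fatty acid enzymes were mixed. Their median difference was 0.45, and 2 of 6 reached 2-fold toward columnar/hypertrophic cartilage, against 4.28% of all compared genes. *Scd1*, encoding stearoyl-CoA desaturase 1, which makes monounsaturated fatty acids, had the largest difference of all 30 genes. Its signals were 12937 in columnar/hypertrophic and 2066 in round cartilage, a 6.26-fold difference, and its second probe set gave signals of 1649 in columnar/hypertrophic and 206 in round cartilage, an 8.03-fold difference. Only 64 of the 12761 compared genes had a larger positive difference. Adipocytes also carry much *Scd1* mRNA. Of 8 measured adipocyte markers 7 lay under the floor in both arrays. *Fabp4*, among these 7, had signals of 23.3 in columnar/hypertrophic and 47.9 in round cartilage. The exception, *Lpl*, had signals of 2355 in columnar/hypertrophic and 1860 in round cartilage. The part of adipocytes in the *Scd1* values was not tested. *Scd2*, encoding the paralog that is abundant in embryonic tissues, had signals of 41533 in columnar/hypertrophic and 28328 in round cartilage, a difference of 0.55. Its dimmer probe sets gave 0.77 and 0.91. Signals of the brightest probe set lie in the upper part of the scale, which ends at 68899. Cross-hybridization between the *Scd* paralogs was not tested.

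*Acly*, encoding ATP citrate lyase, the source of cytosolic acetyl-CoA for both pathways, was the other fatty acid gene past 2-fold. Its signals were 7544 in columnar/hypertrophic and 3437 in round cartilage. Of its 6 probe sets 4 were compared, 3 with differences from 0.88 to 1.13 and a dim one at -0.05. The committed and elongating enzymes had smaller differences. *Acaca*, encoding acetyl-CoA carboxylase 1, had signals of 1238 in columnar/hypertrophic and 1117 in round cartilage, with 0.15 and -0.04 on its probe sets. *Fasn*, encoding fatty acid synthase, had signals of 4730 in columnar/hypertrophic and 3695 in round cartilage, a difference of 0.36. *Elovl6*, encoding the elongase of palmitate, had signals of 2746 in columnar/hypertrophic and 2893 in round cartilage. Its 3 probe sets gave differences from -0.24 to -0.04, and its value was 0.02 when differences were centered on their median.

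The higher sterol enzymes of the columnar/hypertrophic array stood beside a lower level of perichondrium and fibroblast markers there (5 of 5 past 2-fold, median difference -2.35). Of 3 articular and resting zone markers 2 also passed 2-fold toward round cartilage. The lubricin gene *Prg4* had signals of 94.1 in columnar/hypertrophic and 5260 in round cartilage, and the joint growth factor gene *Gdf5* 296 in columnar/hypertrophic and 949 in round cartilage. All 4 columnar and prehypertrophic markers passed it the other way, with a median difference of 3.26. The part of these tissues and zones in the sterol values was not tested.

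**Figure D3:**
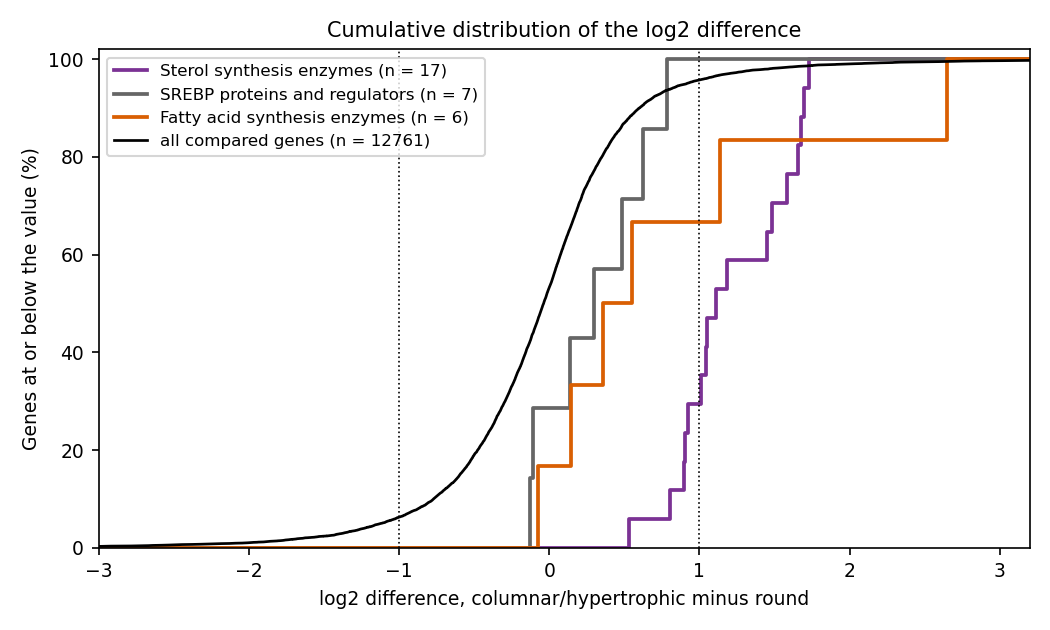
Cumulative share of genes (%) by log2 difference (columnar/hypertrophic minus round) for sterol synthesis enzymes, SREBP proteins and regulators, fatty acid synthesis enzymes, and all 12761 compared genes. Dotted lines mark 2-fold. The sterol curve starts at 0.53 and has a median of 1.11, against a median of -0.04 for all compared genes.

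The promoters of the members were inspected for letters bound by the factors that act on sterol genes. SREBPs bind sterol regulatory elements, and NF-Y, which binds the CCAAT box, works beside them at many of these genes. RefSeq windows of 300 bases (GRCm38.p6), from 250 before to 50 after a start site, were matched for 25 of the 30 genes. *Fdps*, *Fdft1*, *Sqle*, *Scd1* and *Scd2* were not matched. Both strands were searched for 3 motifs. CCAAT was found in 14 of 14 matched sterol enzyme genes, 4 of 7 SREBP and regulator genes, and 2 of 4 fatty acid genes, and in 42.3% of 17491 protein-coding genes with a window. The sterol regulatory element core TCACNCCAC was found in 1 matched member, *Hmgcs1*, and in 1.41% of protein-coding genes. The GC box CCGCCC was found in 13 of 14 sterol enzyme genes, 6 of 7 SREBP and regulator genes, and 1 of 4 fatty acid genes, and in 49.2% of protein-coding genes. The CCAAT and TCACNCCAC letters share no overlapping site in the stretches below. The median G+C content was 61.3% in the windows of sterol enzymes and 56.3% in those of protein-coding genes, and its part in the shares was not tested. Genes with several windows were counted when any window held the motif. *Dhcr7* counts for CCAAT only in this way, through the window that starts at chr7:143829964. Its windows that start at 143822917 and 143823149 hold 0. The same holds for *Pmvk* (window that starts at chr3:89454291) and *Insig2* (chr1:121332540), whose other windows hold 0. A match is a string of letters and was not tested for binding.

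Stretches from 5 of these promoters are shown because they carry CCAAT boxes, which each matched sterol enzyme gene has in some window. They are *Hmgcs1* and the 4 matched genes with the largest differences that hold a CCAAT box upstream of the annotated gene. Each is printed 5′ to 3′ on the strand of the gene, with matches to CCAAT or its complement ATTGG and to TCACNCCAC in capitals. *Hmgcs1* lies at chr13:119690101-119690325 (plus strand), *Hsd17b7* at chr1:169969259-169969385 (minus), *Msmo1* at chr8:64733614-64733753 (minus), *Lss* at chr10:76531528-76531562 (plus) and *Mvd* at chr8:122443430-122443497 (minus).
Hmgcs1: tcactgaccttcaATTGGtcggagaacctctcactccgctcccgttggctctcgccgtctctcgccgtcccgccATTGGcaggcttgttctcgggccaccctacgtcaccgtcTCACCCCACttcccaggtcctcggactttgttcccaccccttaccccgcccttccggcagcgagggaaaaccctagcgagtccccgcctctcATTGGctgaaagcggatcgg
Hsd17b7: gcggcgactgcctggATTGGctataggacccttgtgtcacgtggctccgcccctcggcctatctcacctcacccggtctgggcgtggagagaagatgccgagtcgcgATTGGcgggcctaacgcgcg
Msmo1: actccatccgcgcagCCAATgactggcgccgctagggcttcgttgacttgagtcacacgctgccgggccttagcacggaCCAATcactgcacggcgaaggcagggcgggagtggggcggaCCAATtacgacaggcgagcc
Lss: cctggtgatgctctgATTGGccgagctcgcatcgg
Mvd: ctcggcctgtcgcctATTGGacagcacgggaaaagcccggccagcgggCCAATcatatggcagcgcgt

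The *Hmgcs1* stretch holds 3 CCAAT boxes and TCACCCCAC, the single sterol regulatory element core among the 25 matched members. The core begins 137 bases before the start site. Sites that differ from TCACNCCAC were not searched. The *Msmo1* stretch holds 3 boxes, those of *Hsd17b7* and *Mvd* 2 each, and that of *Lss* 1. The gene with the core, *Hmgcs1*, had a difference of 0.92, or 1.02 when centered on the median, so it lies at the edge of the 2-fold rule. Of the 14 members past 2-fold, 11 had a matched window, and 0 of these 11 held the core. The part of the core in the differences was not tested.

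Other genes that SREBPs act on mostly had positive differences too, of smaller median size. Of 15 listed genes 14 were measured and 13 compared. Of these 12 had a positive difference, 3 reached 2-fold in that direction and 0 in the other, and the median was 0.54. Over all compared genes these shares were 46.8%, 4.28% and 6.25%. *Fads2*, encoding delta-6 desaturase, had signals of 4252 in columnar/hypertrophic and 1639 in round cartilage, and its 3 probe sets gave 1.38 to 1.62. *Acss2*, encoding cytosolic acetyl-CoA synthetase, had signals of 280 in columnar/hypertrophic and 114 in round cartilage, and its difference of 1.29 was 0.43 with the floor at the 60th percentile. *Slc25a1*, encoding the mitochondrial citrate carrier that supplies ACLY, had signals of 2632 in columnar/hypertrophic and 1191 in round cartilage, and is named because it completes the count. *Me1*, encoding the NADPH-producing malic enzyme, and *Fads1*, encoding delta-5 desaturase, had differences of 0.94 and 0.93 and were picked as examples after their values were seen. The gene with a negative difference was *Lpin1*, encoding a phosphatidate phosphatase, at -0.17, with its 2 probe sets on both sides of 0.

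Genes that assist or restrain SREBP processing were nearly level. The 5 measured genes had a median difference of 0.16. Of these 0 reached 2-fold, against 4.28% of all compared genes toward columnar/hypertrophic and 6.25% toward round cartilage. *Erlin2*, encoding an ER protein of INSIG-dependent degradation complexes, had the largest difference of the 5 at 0.33. Other enzymes that elongate or desaturate fatty acids varied widely. Of 15 compared genes 10 had a positive difference, 2 reached 2-fold in the columnar/hypertrophic direction and 0 in the other, and the median was 0.28. Over all compared genes these shares were 46.8%, 4.28% and 6.25%. *Fads3*, a desaturase gene of the same family as *Fads1*, had signals of 1651 in columnar/hypertrophic and 478 in round cartilage, with differences from 0.69 to 1.79 on its 3 compared probe sets. *Hacd1*, encoding a dehydratase of very long-chain fatty acid elongation, had signals of 9191 in columnar/hypertrophic and 4009 in round cartilage, a 2.29-fold difference. *Elovl4*, encoding an elongase of very long chains, lay on the other side, with signals of 114 in columnar/hypertrophic and 215 in round cartilage, and its difference of -0.92 was -0.06 with the floor at the 60th percentile.

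**Figure D4:**
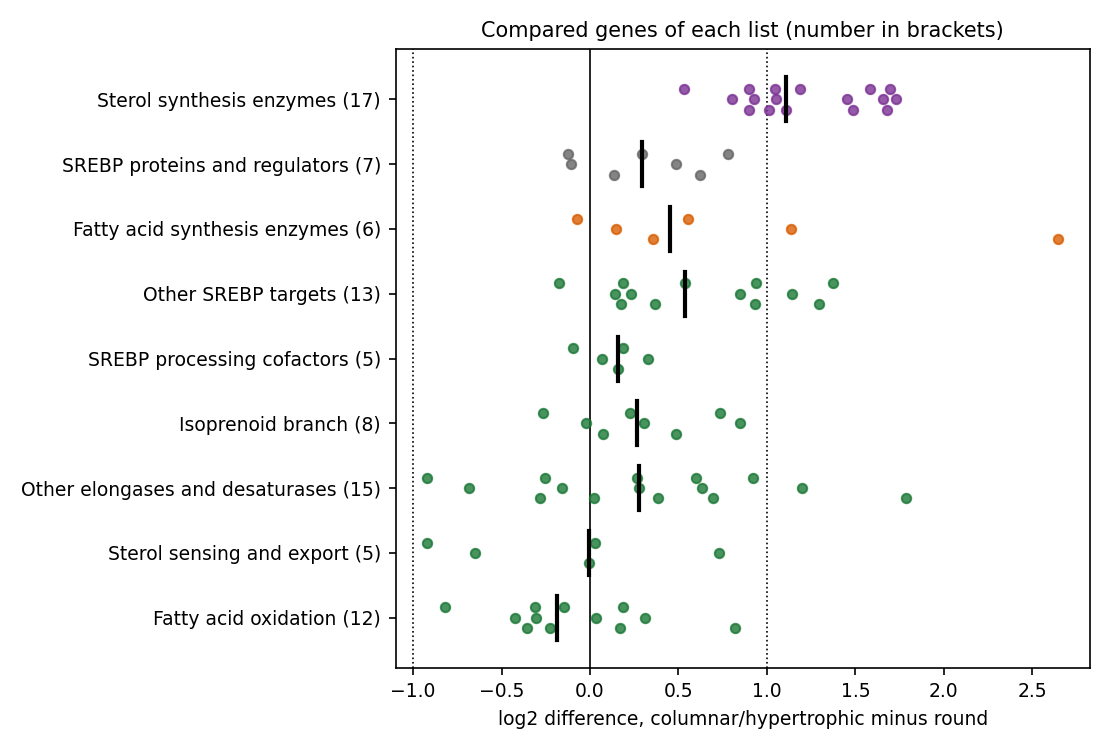
Log2 difference (columnar/hypertrophic minus round) of each compared gene in the 3 groups of members and 6 related lists, with the number of compared genes in brackets. Points are genes, black bars are medians and dotted lines mark 2-fold. The median is 1.11 for sterol synthesis enzymes and -0.19 for fatty acid oxidation.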

How the data were processed

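The authors deposited 1 linear intensity per probe set and array. Per the labels, the submitters' notes name MAS5, with no version, whereas the methods of the paper describe robust multiarray analysis. The deposited values are not log values, and their means after trimming 2% at each end were 496 in columnar/hypertrophic and 497 in round cartilage. They were used without further scaling. Samples were grouped by the cell type in the labels.

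Probe sets were named from the platform annotation, and all 30 member symbols matched their Entrez identifiers. One further probe set lists a member with another gene and was not used. The 40th percentile over the signals of both arrays served as floor. Probe sets under it in both arrays were not compared, and a value under it in 1 array was set to it. Each gene was represented by the probe set brightest on average (log2). The members and lists were chosen with earlier results of these data known. Named genes were all members, and from each related list up to 2 per direction that differed most and lay above the floor in each array. Only some are given. Alternatives were median centring, quantile normalization, lowess centring (span 0.3), and a floor at the 20th or 60th percentile or none. Others were averaging a gene's probe sets, a 3-fold rule, and specific probe sets only. The last kept only identifiers without a letter a, s, x, i, f, r or g in the suffix. The steps were run on simulated data with larger changes than most members show and less noise than the spread between probe sets here. That checked the code and not how well the 2-fold rule works. Computation used pandas 2.3.3, numpy 2.4.6 and, for lowess, statsmodels 0.14.6 under Python 3.11.15.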

Additional observations from a re-analysis of the deposited data

How the results depend on the processing

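No paired analysis was possible because the design holds a single array per zone. Under 8 alternatives in scaling, floor and choice of probe sets, 12 to 15 members passed 2-fold toward columnar/hypertrophic cartilage and 0 toward round cartilage, and the median of sterol enzymes stayed at or above 1.05. All compared sterol enzymes (16 with specific probe sets only, 17 otherwise) had a positive difference in each. Over all compared genes, the share past 2-fold toward columnar/hypertrophic cartilage ran from 3.58% (floor at the 60th percentile) to 10.7% (no floor). Toward round cartilage the share ran from 4.19% to 13.9% at the same settings. A 3-fold rule left 5 members, *Fdps*, *Msmo1*, *Hsd17b7*, *Dhcr7* and *Scd1*, and the share of all genes past 3-fold was not computed. With specific probe sets only, *Msmo1* (1.06) and *Hsd17b7* (1.28) stayed past 2-fold but fell short of 3-fold. *Sqle* fell under 2-fold after quantile normalization (0.95) and lowess centring (0.93), *Sc5d* (0.59) and *Acly* (0.75) with the mean over probe sets, and *Lss* (0.69) with specific probe sets. *Hmgcs1* passed it when centered on the median (1.02), and *Mvk* after quantile normalization (1.03) and lowess centring (1.06). *Mbtps1* was 0.05 with the mean over probe sets. Against the pooled SD of 0.34 between probe sets, 232 values of single members stayed within it and 6 moved by more, and none past 2-fold turned its sign. Many of the 232 could not move. Members lay above every floor used, so changing it left their values as they were, and median centring shifted all members alike. Averaging cannot change genes with a single compared probe set. The number of arrays limits the precision.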

Other observations

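Genes of neighboring lipid pathways had smaller median differences than the 1.11 of the sterol enzymes. In fatty acid oxidation, 5 of 12 compared genes had a positive difference (columnar/hypertrophic minus round), 0 reached 2-fold in either direction, and the median was -0.19. Among all compared genes 46.8% had a positive difference. Past 2-fold were 4.28% toward columnar/hypertrophic and 6.25% toward round cartilage, so these counts are near those of the whole array. *Slc25a20*, encoding the mitochondrial carnitine-acylcarnitine carrier, had signals of 721 in columnar/hypertrophic and 408 in round cartilage. *Cpt1a*, encoding the carnitine palmitoyltransferase that admits fatty acids to mitochondria, had signals of 118 in columnar/hypertrophic and 208 in round cartilage, and its difference was -0.82, or -0.01 with the floor at the 60th percentile. *Hadh*, encoding a dehydrogenase of this pathway, had a difference of -0.42 on its brightest probe set and 1.40, past 2-fold, on another. Its mean over probe sets was 0.24.

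The isoprenoid branch draws on farnesyl diphosphate for prenyl groups, dolichol and ubiquinone. Its median difference was 0.27 over 8 compared genes. Of these 0 reached 2-fold, against 4.28% of all compared genes toward columnar/hypertrophic and 6.25% toward round cartilage. *Dhdds*, encoding a subunit of the dolichol-forming prenyltransferase, had signals of 792 in columnar/hypertrophic and 440 in round cartilage, a difference of 0.85 that was 0.09 on specific probe sets. *Ggps1*, encoding geranylgeranyl diphosphate synthase, had a difference of -0.27. Of 7 measured genes of sterol sensing and export 5 were compared, and their median was -0.01. *Abca1*, encoding the cholesterol exporter, had signals of 227 in columnar/hypertrophic and 357 in round cartilage, while *Lpcat3*, encoding a lysophospholipid acyltransferase, had signals of 1627 in columnar/hypertrophic and 980 in round cartilage.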
